A study of Bos taurus with 30 samples.

Results

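*ADCYAP1R1* (ENSBTAG00000020247), *VIPR2* (ENSBTAG00000037649) and *RGS4* (ENSBTAG00000046277) are 2 receptor genes for the neuropeptides PACAP and VIP and 1 gene for a regulator of G-protein signalling. They were taken as 3 of the 27607 genes in the table because they stand on the study's list of genes that differed between diets in the calves analysed here. The difference between diets in these 3 genes is therefore a description of how they were chosen and not a finding. Transcript abundance was measured by mRNA sequencing of the anterior pituitary of 30 Holstein-Friesian bull calves, 1 library per calf. From 2 weeks of age until tissue collection at 12 weeks, 15 calves received a high plane of nutrition (HI) and the other 15 a moderate one (MOD). The daily allowance in HI was 10 litres of milk holding 1.5 kg of replacer, with concentrate ad libitum. In MOD it was 4 litres holding 0.5 kg of replacer, with 0.5 kg of concentrate. All calves in both groups had water and hay.

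PACAP (pituitary adenylate cyclase activating polypeptide) and VIP (vasoactive intestinal peptide) are related peptides that reach the pituitary from the hypothalamus and are also made within the gland. The product of *ADCYAP1R1* binds PACAP with far higher affinity than VIP, whereas the product of *VIPR2* binds both peptides. Both receptors couple mainly to the stimulatory G protein that activates adenylate cyclase and raises cyclic AMP, through which PACAP modulates hormone cells of the anterior lobe. RGS4 speeds the hydrolysis of GTP on G-protein alpha subunits of the Gi and Gq classes and so shortens the signals of receptors that use them. A group of 3 hormone genes was set beside these transcripts, namely *GH1* (ENSBTAG00000017220, growth hormone of somatotrophs), *PRL* (ENSBTAG00000015274, prolactin of lactotrophs) and *POMC* (ENSBTAG00000007897, the precursor of corticotropin).

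Values are read counts scaled by the authors to an effective library size and are given as normalised CPM. The 30 libraries held 14.7 to 26.9 M (mega) reads. 1 library, HI replicate 3, stood apart from the other 29, with a scaling factor of 0.510 against 0.894 to 1.15 and 16940 genes with a read against 18317 to 18975. Results that rest on it are given with and without it. The hormone genes made up much of each library, as is usual for this tissue. *GH1* took 7.30% to 24.4% of reads in HI calves and 8.95% to 15.1% in MOD calves. *PRL* took 6.10% to 24.7% and 3.74% to 20.6%, and *POMC* took 0.177% to 5.27% and 0.116% to 0.936%. All 3 members passed the filter on low values (over 1 normalised CPM in at least 15 libraries), which 14290 genes passed.

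*ADCYAP1R1*, the PACAP-preferring receptor, was near the lower limit of what was tested. In HI calves its level ran from 0.245 normalised CPM (3 reads, HI replicate 3) over a median of 1.83 to 7.18 (171 reads, HI replicate 2). In MOD calves it ran from 0.480 (10 reads, replicate 11) over a median of 1.04 to 3.43 (97 reads, replicate 2). The groups overlapped, and 4 HI calves (replicates 2, 4, 6 and 11) lay above the highest MOD calf while HI replicate 3 lay below the lowest. The level was over 1 normalised CPM in 12 of 15 HI and 9 of 15 MOD calves. Its mean was 2.48 ± 1.89 in the HI calves and 1.24 ± 0.703 in the MOD calves (SD, n = 15 each).

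*VIPR2*, the receptor for both peptides, was the gene whose MOD calves lay closest together. It ran from 1.34 normalised CPM (27 reads, replicate 4) over a median of 3.27 to 12.98 (309 reads, replicate 2) in HI calves. In MOD calves it ran from 1.53 (44 reads, replicate 3) over a median of 2.26 to 3.44 (56 reads, replicate 1). The upper part of the HI group lay clear of the MOD group and the lower part did not: 7 HI calves (replicates 1, 2, 3, 8, 9, 13 and 15) were above the highest MOD calf, and replicate 4 was below the lowest. The highest HI calf had 9.70 times the level of the lowest, against 2.25 times in MOD. The mean was 4.56 ± 3.05 against 2.30 ± 0.648 (SD, n = 15 each).

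*RGS4*, the regulator of signal duration, ran from 1.964 normalised CPM (24 reads, replicate 3) over a median of 7.54 to 20.8 (427 reads, replicate 10) in HI calves. In MOD calves it ran from 2.13 (51 reads, replicate 8) over a median of 4.11 to 8.48 (240 reads, replicate 2). Here too the groups overlapped, with 6 HI calves (replicates 2, 7, 9, 10, 12 and 15) above the highest MOD calf and HI replicate 3 below the lowest. The mean was 7.99 ± 4.83 against 4.47 ± 1.92 (SD, n = 15 each). These are bulk tissue values, in which fewer cells of a type and less RNA per cell cannot be told apart.

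**Figure D1:**
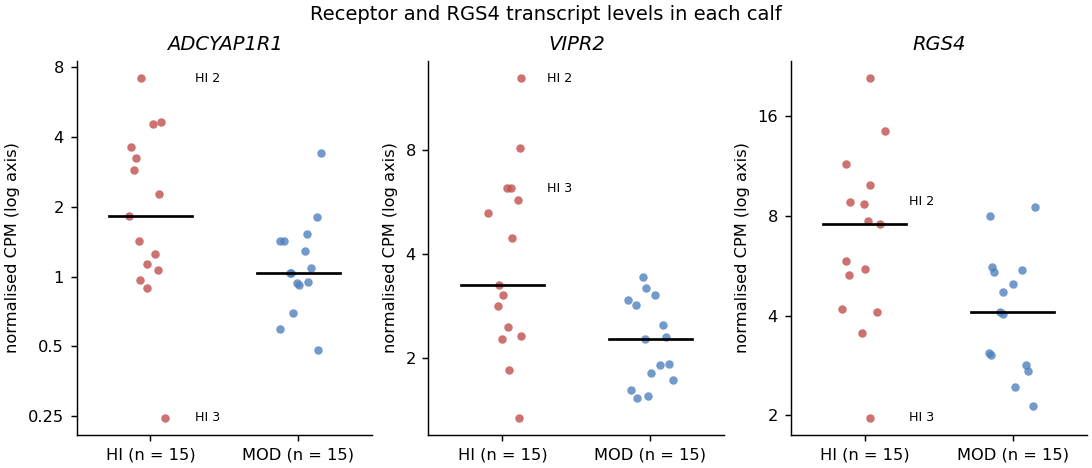
Level of *ADCYAP1R1*, *VIPR2* and *RGS4* in each calf (points; normalised CPM, log axes that differ between panels) by diet, with the median of each diet as a black line. The medians are 1.83, 3.27 and 7.54 in HI against 1.04, 2.26 and 4.11 in MOD, the groups overlap for every gene, and HI replicate 3 is the lowest calf for *ADCYAP1R1* and *RGS4* but not for *VIPR2*.

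The HI calves above the highest MOD calf numbered 4 for *ADCYAP1R1*, 7 for *VIPR2* and 6 for *RGS4*. Their overlap is given as a description, since the overlap of independent genes was not computed beside it. Of the 15 HI calves, 10 lay above the highest MOD calf in exactly 1 of the 3 genes, 2 in 2 genes, 1 in all 3 and 2 in none. The calf above in all 3 was HI replicate 2, and those above in 2 were replicates 9 and 15, both in *VIPR2* and *RGS4*.

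On the scale log2(normalised CPM + 1), which understates the change of low genes, the HI minus MOD difference was 0.50 ± 0.21 for *ADCYAP1R1*, 0.60 ± 0.19 for *VIPR2* and 0.62 ± 0.22 for *RGS4* (SE from limma across all genes tested, n = 15 and 15). As selection on this contrast implies, they lay far out among the 14290 genes, of which 0.763%, 0.434% and 0.378% had a larger absolute difference. The call used here was an adjusted p under 0.1 (Benjamini-Hochberg over all genes tested) with a fold change over 1.5. By that rule limma called 0 of the 3 members, against a background of 0% (0 of 14290 genes, with 933 under 0.05 before adjustment). On whole reads recovered from the table, the quasi-likelihood test of edgeR also called 0 genes, with 1287 under 0.05 before adjustment. The likelihood-ratio test of edgeR called *VIPR2* as 1 of 16 genes higher in HI, a background of 0.112%, and the Wald test of DESeq2 also called *VIPR2*. Since the 3 genes were chosen on this contrast, nothing is read from these counts.

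How far the size of these differences depends on single libraries can be given directly. Without HI replicate 3 the differences were 0.60, 0.57 and 0.72 on the log2 scale for *ADCYAP1R1*, *VIPR2* and *RGS4*, and without HI replicate 2 they were 0.40, 0.50 and 0.60. Leaving out each of the 30 calves in turn kept all 3 positive. With 0.5 added to each value in place of 1, the differences over all calves were 0.60, 0.68 and 0.67. The count models gave 0.99 to 1.00 for each receptor and 0.84 for *RGS4*, and were not run with a calf left out. Why their values were larger was not tested. Sample titles carry a number with digits at positions 2 and 3 that form 4 series of unstated meaning. In the largest, series 78 (8 HI and 8 MOD calves), the differences were 0.59, 0.52 and 0.74, and with the series as a covariate over all calves they were 0.61, 0.49 and 0.72.

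The 3 hormone genes were not chosen on diet, and none was called. *GH1* differed between diets by -0.01 ± 0.22 on the log2 scale (SE, limma, adjusted p = 0.992). *PRL* differed by 0.16 ± 0.29 (adjusted p = 0.895, limma) and *POMC* by 0.43 ± 0.39 (adjusted p = 0.844, limma). The intervals these errors imply are wide, most of all for *POMC* and *PRL*. A difference of the size seen in the receptors was not called by limma in the receptors themselves. The lack of a call in a hormone gene therefore does not show the lack of such a difference. *POMC* had 4 HI calves above the highest MOD calf, but its medians were close (4619 normalised CPM in HI and 4395 in MOD). Without HI replicate 2, the highest calf in *POMC*, its limma difference was 0.20 ± 0.33 (SE). In the count models, which were not run without that calf, the *POMC* difference was 1.09 (edgeR likelihood-ratio test, adjusted p = 0.365). That test gave 0.99 for each receptor.

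The HI calves spread more widely than the MOD calves in both receptors. For *VIPR2* the SD of log2 values was 0.72 in the 14 HI calves other than replicate 3 and 0.28 in the 15 MOD calves, a ratio of 2.57. A ratio that large or larger was found in 0.161% of the genes tested, over which the median ratio was 1.11. For *ADCYAP1R1* the SDs were 0.67 and 0.38, a ratio of 1.77 that 4.48% of genes reached. The 1 added before taking logs compresses spread at low levels. For *ADCYAP1R1*, with medians of 2.04 in these HI calves and 1.04 in MOD, it does so more in MOD and raises the ratio. The ratio without the added 1 was not computed. *RGS4* did not stand out in this respect (0.64 and 0.49, ratio 1.32, reached by 26.6% of genes), and *POMC* did (1.46 and 0.66, ratio 2.23, reached by 0.644%). These shares are descriptions, since genes picked for high levels in some HI calves may also spread widely there. Counting error accounts for a part of the spread that differs by gene and diet: 4.33% of the variance in HI and 16.1% in MOD for *ADCYAP1R1*, 3.18% and 26.3% for *VIPR2*, and 2.53% and 6.53% for *RGS4*.

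The next comparison asked whether calves high in one of the 3 transcripts were high in another once diet is taken out. Deviations of log2 values from the mean of each diet were correlated over the 30 calves and tested by 100000 two-sided permutations within diet. A total of 12 relations were tested, 3 among the members and 9 with the hormone genes, and p-values were adjusted over the 12. No pair of members was correlated beyond the threshold of 0.05. *ADCYAP1R1* with *VIPR2*, the 2 receptors, gave r = -0.122 (permutation p = 0.607, adjusted p = 0.729; 95% interval by Fisher's z -0.467 to 0.256) and rho = -0.313 (permutation p = 0.142, adjusted p = 0.363). *ADCYAP1R1* with *RGS4* gave r = 0.242 (permutation p = 0.261, adjusted p = 0.447; interval -0.136 to 0.559) and rho = 0.123 (permutation p = 0.539, adjusted p = 0.647). *VIPR2* with *RGS4* gave r = -0.131 (permutation p = 0.560, adjusted p = 0.729; interval -0.475 to 0.248) and rho = -0.179 (permutation p = 0.377, adjusted p = 0.647). The intervals leave room for a moderate negative correlation of *VIPR2* with either other member, and for a moderate positive correlation of *ADCYAP1R1* with *RGS4*.

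The value between the receptors moved most with 1 calf. HI replicate 2 was the highest calf of all 30 in both *ADCYAP1R1* and *VIPR2*, and without it r became -0.511 (permutation p = 0.0176, adjusted p = 0.0706). Without the 2 calves farthest from the median of *ADCYAP1R1* (HI replicates 2 and 6) it was -0.509 (permutation p = 0.0181, adjusted p = 0.0742), and in series 78 alone it was 0.0789. None of these values passed the threshold. The other pairs did not pass it either, without HI replicate 3 (r = 0.0618 for *ADCYAP1R1* with *RGS4* and -0.0475 for *VIPR2* with *RGS4*) or without the 2 farthest calves (0.227 and -0.291). With the log2 levels of *GH1*, *PRL* and *POMC* also removed, *VIPR2* with *RGS4* gave r = -0.464 (permutation p = 0.0128, adjusted p = 0.0385 over the 3 pairs of members).

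**Figure D2:**
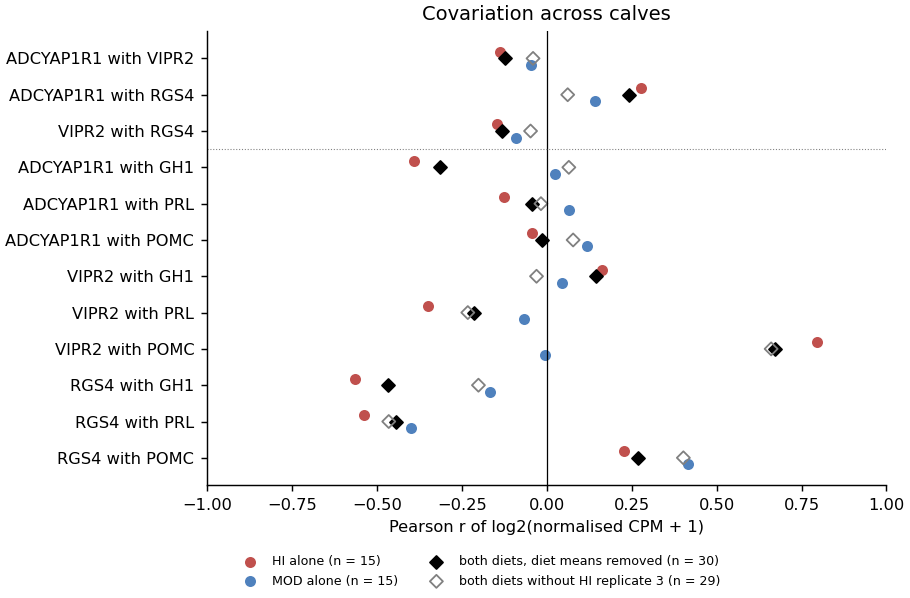
Pearson r for each of the 12 relations, among the members above the dotted line and with the hormone genes under it, in HI calves, in MOD calves, in both with diet means removed, and in both without HI replicate 3. *VIPR2* with *POMC* stands farthest from 0 over both diets at 0.673, with HI at 0.796 and MOD at -0.00491, and the relations of *ADCYAP1R1* and *RGS4* with *GH1* move towards or past 0 without HI replicate 3.

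*VIPR2* was the only member correlated beyond the threshold with *POMC*, though the members were not compared with each other in this. Over the 30 calves r was 0.673 (permutation p = 0.000890, adjusted p = 0.0107; 95% interval 0.407 to 0.834) and rho was 0.544 (permutation p = 0.00760, adjusted p = 0.0456). Without HI replicate 3, r was 0.661 (permutation p = 0.00148, adjusted p = 0.0178) and rho was 0.476 (permutation p = 0.0209, adjusted p = 0.108), so that the rank correlation no longer passed. Of the other tested genes, 0.154% had an r with *VIPR2* at least as high as that of *POMC* over all libraries, and 0.357% without HI replicate 3. In series 78 alone r was 0.864 (n = 16, permutation p = 0.00288, adjusted p = 0.0346), and with the series removed as a covariate it was 0.719.

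Calf by calf, the relation was plain in HI. The calf highest in *VIPR2*, HI replicate 2 at 12.98 normalised CPM, was also the highest in *POMC* at 52819 normalised CPM, and the next in both was HI replicate 9 (8.12 and 22150). At the low end, HI replicates 4 and 5 were the lowest HI calves in *VIPR2* (1.34 and 1.84) and had 1843 and 2009 of *POMC*. HI replicate 13 went against the pattern, with 5.75 of *VIPR2* beside the lowest *POMC* of its diet, 1705. In HI alone r was 0.796 (n = 15, permutation p = 0.000440, adjusted p = 0.00528) and rho was 0.739 (permutation p = 0.00248, adjusted p = 0.0298). In MOD alone, where both genes varied less, r was -0.00491 (n = 15, permutation p = 0.987) and rho was 0.050 (permutation p = 0.863).

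**Figure D3:**
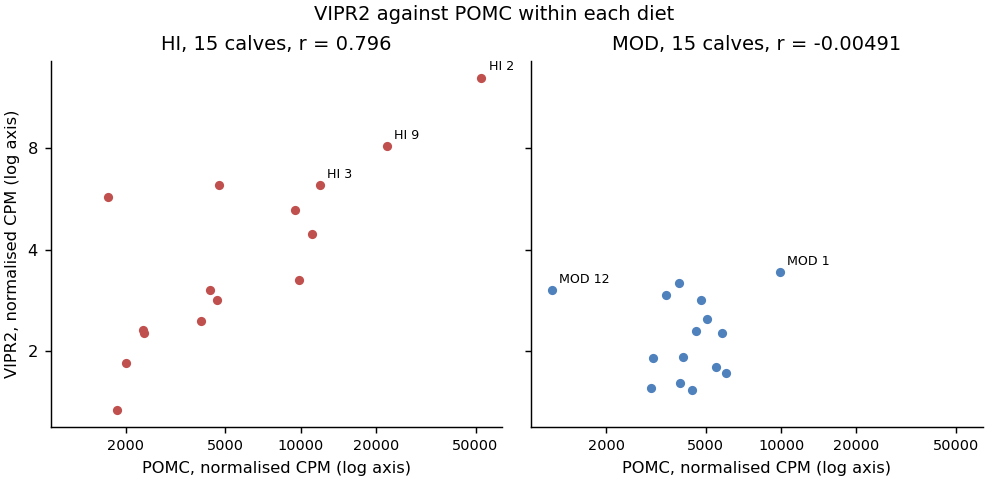
*VIPR2* against *POMC* (normalised CPM, log axes shared by both panels) in the 15 HI and 15 MOD calves, each point 1 calf, with r of log2(normalised CPM + 1) in each title. HI calves run from low in both genes to HI replicates 9 and 2, which are high in both (r = 0.796). MOD calves span 2.25 times from lowest to highest in *VIPR2* and 8.15 times in *POMC* (r = -0.00491).

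The relation rested in part on HI replicates 2 and 9, the 2 calves farthest from the median of *VIPR2*. Without both, r over the remaining calves was 0.410 (permutation p = 0.0612, adjusted p = 0.160) and did not pass. Without HI replicate 2 alone it was 0.528 (permutation p = 0.0143, adjusted p = 0.0706). In HI alone without both, which was chosen after seeing the data, r was 0.571 (n = 13, permutation p = 0.0452) and rho was 0.599 (permutation p = 0.0349).

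Whether the relation differed between diets was tested by permuting the diet labels of the deviations. The difference in r, HI minus MOD, was 0.801 (permutation p = 0.0336), which did not pass after adjustment over 12 relations (adjusted p = 0.404). With deviations scaled to the same SD within each diet the permutation p was 0.113 (adjusted p = 0.881), and as a difference in rho it was 0.689 (permutation p = 0.0805, adjusted p = 0.869). A difference between diets in this relation is therefore not shown. Leaving out 1 calf at a time moved r in HI alone from 0.681 (without replicate 2) to 0.921 (without replicate 13), and r in MOD alone from -0.312 (without replicate 1) to 0.373 (without replicate 12). The difference had an adjusted p under 0.05 in 1 of the 30 cases, without HI replicate 13 (0.0396).

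**Figure D4:**
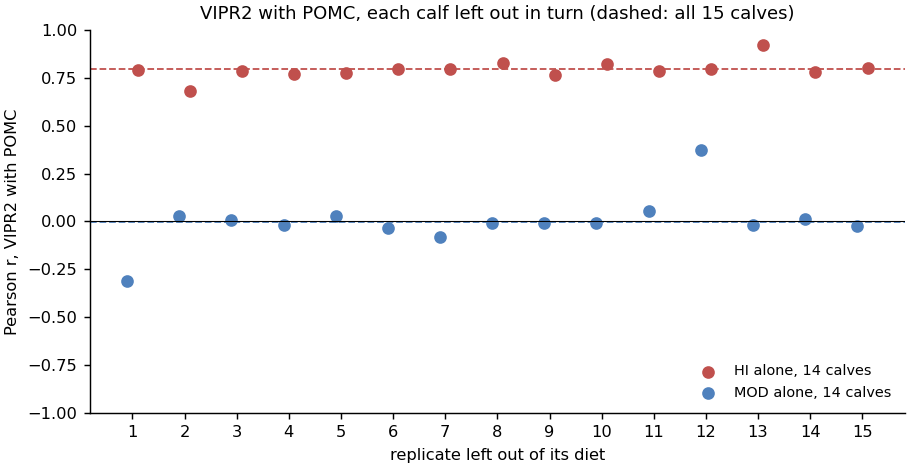
Pearson r of *VIPR2* with *POMC* within each diet (y axis) when the replicate on the x axis is left out of that diet, with r over all 15 calves as a dashed line. HI values lie between 0.681 and 0.921 and MOD values between -0.312 and 0.373. Values within a diet share most of their calves, so these ranges show the weight of single calves and do not test a difference between diets. The difference itself did not pass its adjusted test.

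*VIPR2* was not correlated beyond the threshold with the other hormone genes. With *GH1* r was 0.144 (permutation p = 0.565, adjusted p = 0.729), and with *PRL* it was -0.214 (permutation p = 0.211, adjusted p = 0.431). *ADCYAP1R1* was not correlated beyond it with any of the 3 hormone genes, with r = -0.314 for *GH1* (permutation p = 0.166, adjusted p = 0.431), -0.0431 for *PRL* and -0.0126 for *POMC*. The value for *GH1* rested on HI replicate 3, which had 3 reads of *ADCYAP1R1* and the highest *GH1* of all calves (478285 normalised CPM). Without that library it was 0.0652 (permutation p = 0.752).

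*RGS4* was lower in calves with more *PRL*, with a test that passed by rank only. Over the 30 calves rho was -0.530 (permutation p = 0.00286, adjusted p = 0.0343) and r was -0.444 (permutation p = 0.0105, adjusted p = 0.0628; 95% interval -0.697 to -0.0924). The sign was the same in HI alone (r = -0.537, n = 15, permutation p = 0.0385, adjusted p = 0.154) and in MOD alone (r = -0.399, n = 15, permutation p = 0.141, adjusted p = 0.844). Without HI replicate 3, rho was -0.490 (permutation p = 0.00758, adjusted p = 0.0910) and r was -0.465 (permutation p = 0.00967, adjusted p = 0.0580), so neither passed. The 2 calves farthest from the median of *RGS4* made little difference to r (-0.440 without them, permutation p = 0.0185, adjusted p = 0.0742).

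**Figure D5:**
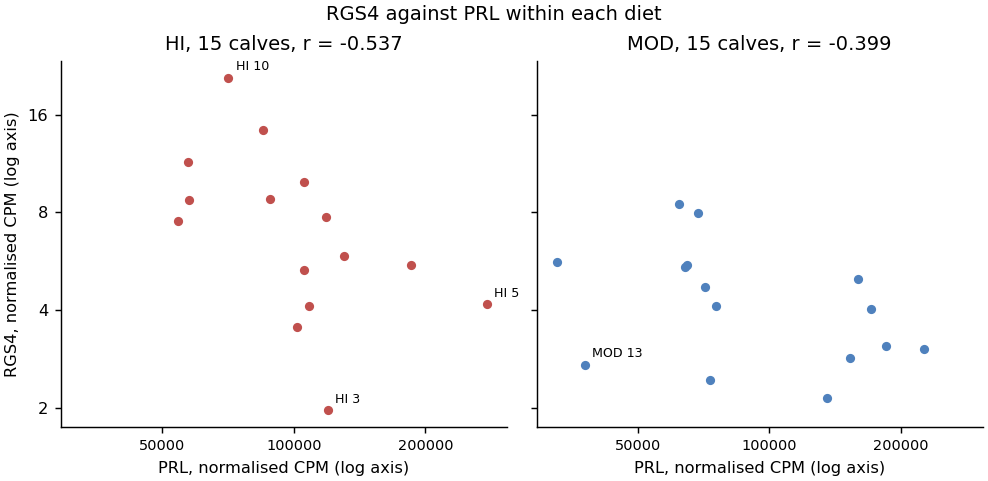
*RGS4* against *PRL* (normalised CPM, log axes shared by both panels) in the 15 HI and 15 MOD calves, each point 1 calf, with r of log2(normalised CPM + 1) in each title. *RGS4* falls from left to right in HI (r = -0.537) and in MOD (r = -0.399), MOD replicate 13 lies low in both genes, and no MOD calf lies between 75525 and 135435 of *PRL*.

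The scaling of the libraries moved with this relation. *RGS4* was correlated over the 30 calves with the log2 scaling factor of the library (r = 0.575, and 0.425 without HI replicate 3), and less so with the number of genes with a read (0.485 and 0.222). The scaling factor showed smaller values for *ADCYAP1R1* (0.391 and 0.0320) and *VIPR2* (-0.123 and 0.107). With the total of all genes other than *GH1*, *PRL* and *POMC* as library size, r of *RGS4* with *PRL* was -0.318 (permutation p = 0.0740, adjusted p = 0.296), and with library totals alone it was -0.336 (permutation p = 0.0582, adjusted p = 0.175). The part that scaling has in the relation was not tested beyond these values.

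The remaining relations of *RGS4* did not pass. With *GH1* r was -0.467 (permutation p = 0.0236, adjusted p = 0.0944) and rho was -0.271 (permutation p = 0.151, adjusted p = 0.363), and without HI replicate 3 r was -0.201 (permutation p = 0.313, adjusted p = 0.750). With *POMC* r was 0.269 (permutation p = 0.215, adjusted p = 0.431), and without HI replicate 3 it was 0.402 (permutation p = 0.0512, adjusted p = 0.205). HI replicate 3, the lowest calf in *RGS4*, was thus the library on which these values turned. For none of the 12 relations did r differ between diets after adjustment over the 12, the lowest adjusted p being that of *VIPR2* with *POMC*.

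The genes most like each member were found by rank correlation of deviations from diet means over the 29 libraries other than HI replicate 3, as a description. For *VIPR2* the closest gene was ENSBTAG00000019203 (rho 0.759, and 0.748 over all 30), itself a gene of low level with a wide range, 0.347 to 20.3 normalised CPM. ENSBTAG00000019382 and ENSBTAG00000008300 followed at 0.725 and 0.715, and the most opposed gene was ENSBTAG00000010863 at -0.699. For *RGS4* the closest genes were ENSBTAG00000003172, ENSBTAG00000053970 and ENSBTAG00000008336 (rho 0.691, 0.675 and 0.674), and the most opposed was ENSBTAG00000048350 (-0.735). The closest genes to *ADCYAP1R1* were less close, ENSBTAG00000014322, ENSBTAG00000013449 and ENSBTAG00000031687 at 0.548, 0.532 and 0.531, with ENSBTAG00000000133 most opposed at -0.592. No other member was among the 3 closest genes of any member. The symbols of these genes were not looked up, because no table used here pairs their identifiers with names.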

How the data were processed

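Poly(A) RNA of the anterior pituitary of 30 calves was sequenced as paired reads from stranded libraries, trimmed with Cutadapt, aligned to the bovine build ARS-UCD1.2 and counted per gene with STAR by the authors. The deposited unit is a signal, namely gene read counts that the authors scaled to normalised CPM. In all, 100% of the 556895 nonzero values lay within 0.01 of a whole number of reads, so reads were recovered, and 5141 of the 27607 genes had none. Every column was matched to a sample (0 without one).

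Values were tested as log2(value + 1) with limma 3.58.1 (eBayes with trend, R 4.3.3) over the 14290 genes above 1 in at least 15 libraries, without covariates. Calls used the thresholds of the study, a Benjamini-Hochberg adjusted p below 0.1 with a fold change above 1.5. Recovered reads were tested with edgeR 4.0.16 (0 genes called by quasi-likelihood, 26 by likelihood ratio) and DESeq2 1.42.0 (26). Correlations used deviations from diet means and 100000 permutations within diet (20000 where 1 library other than HI replicate 3 was left out), in Python 3.11.15 with NumPy 2.4.6 and SciPy 1.17.1. Intervals are Fisher's z. Alternatives changed the scaling, pseudocount or filter, added the title series or left out each library. Chosen after seeing the data were correlations in series 78 alone and, for the difference between diets, its scaled, rank and leave-one-out forms. The procedures were tested on simulated data.

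The members and lists were chosen with earlier results of these data known. Named genes were the members, the 3 hormone genes, *FOS*, the 3 most alike and the most opposed gene per member, and the highest and lowest study-list gene. Member symbols and those of the hormone genes come from the definition of the comparison, and others come from the study. No Ensembl identifier (0) was found in the RefSeq table of assembly ARS-UCD2.0, so the other planned lists (receptor signalling, RGS family, cell type markers) and promoter motifs were not analysed here. Calves had been blocked on age, bodyweight, sire and farm, but no sample is labelled with its block. The closest pair of libraries within a diet differed by a chi-square of 13.8 per degree of freedom, so none was present more than once within its diet. Pairs across diets were not compared.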

Additional observations from a re-analysis of the deposited data

How the results depend on the processing

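In these alternatives the HI minus MOD difference of all 3 members stayed positive in 39 of 39 settings each, with 1 library left out from 0.40 to 0.60 for *ADCYAP1R1*, 0.50 to 0.68 for *VIPR2* and 0.51 to 0.72 for *RGS4* (log2). The cause of the changes below was not tested. Genes called over all genes numbered 2 with library totals only and 26 with the edgeR likelihood-ratio test and with DESeq2, and 0 to 11 with 1 library left out (11 without HI replicate 3, 8 without HI replicate 2, up to 2 otherwise). The *GH1* difference changed sign to 0.19 (both edgeR tests), 0.0105 (series covariate) and 0.22 (series 78 alone), and ran from -0.164 to 0.0305 with 1 library left out.

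Scaling by library totals only turned the sign of r for *ADCYAP1R1* with *VIPR2* (0.0195), *VIPR2* with *RGS4* (0.0764), *ADCYAP1R1* with *PRL* (0.00882) and *POMC* (0.0830), and *VIPR2* with *GH1* (-0.0650). A library size without the 3 hormone genes gave 0.0581 and 0.0323 for *ADCYAP1R1* with *PRL* and *POMC*, and -0.0715 for *VIPR2* with *GH1*. The series covariate gave 0.00234 for *ADCYAP1R1* with *VIPR2* and 0.0230 with *PRL*. Series 78 alone gave 0.0789, 0.0268 and 0.0958 for *ADCYAP1R1* with *VIPR2*, *PRL* and *POMC*. MOD alone gave 0.0237, 0.0650 and 0.119 for *ADCYAP1R1* with *GH1*, *PRL* and *POMC*, and -0.00491 for *VIPR2* with *POMC*. Without the 2 farthest calves, *ADCYAP1R1* with *PRL* gave 0.0729 and *VIPR2* with *POMC* 0.410, no longer past the threshold. *RGS4* with *PRL* came past the threshold under median-ratio size factors (-0.463, adjusted p = 0.0448 by permutation). *VIPR2* with *RGS4* came past it after removing the hormone genes (-0.464). That test took no account of the genes fitted and was adjusted over the pairs of members only. As a difference in rho between diets, *RGS4* with *GH1* gave 0.104.

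With 1 library left out, r ran from -0.376 to 0.0652 for *ADCYAP1R1* with *GH1*, -0.116 to 0.0268 with *PRL* and -0.379 to 0.0778 with *POMC*. For *VIPR2* it ran from -0.0300 to 0.229 with *GH1*. For *VIPR2* with *POMC* it ran from 0.528 to 0.769 and failed the threshold only without HI replicate 2. For *RGS4* with *PRL* it ran from -0.527 to -0.408, past the threshold without MOD replicates 1, 5 or 13. The HI minus MOD difference in r ran from -0.603 to 0.0269 for *ADCYAP1R1* with *VIPR2*, -0.116 to 0.679 with *RGS4* and -0.656 to 0.0675 with *GH1*, from -0.176 to 0.0521 for *VIPR2* with *RGS4*, -0.105 to 0.262 with *GH1* and 0.423 to 1.11 with *POMC*, and from -0.551 to -0.0615 for *RGS4* with *GH1* and -0.186 to 0.0425 with *PRL*. Depth limits *VIPR2* most in MOD, where counting error made up 26.3% of its variance, and *ADCYAP1R1* most in HI replicate 3 (3 reads). No paired analysis was possible because the replicate numbers only follow the order of accessions and match no calf to another.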

Other observations

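*FOS*, the immediate-early transcription factor gene that the study groups with these 3 genes under G-protein coupled receptor signalling, differed between HI and MOD by -1.24 ± 0.36 on the log2 scale (limma SE, n = 15 and 15, adjusted p = 0.381), a difference that was chosen like theirs and was not called. Its rank correlation within diets, over the 29 libraries other than HI replicate 3, was -0.277 with *ADCYAP1R1*, 0.148 with *VIPR2* and 0.0488 with *RGS4*.

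Among 33 other tested genes of the study's list, rank correlation over the same 29 libraries was positive for 17 with *ADCYAP1R1*, 16 with *VIPR2* and 15 with *RGS4*. The median absolute rho was 0.121, 0.139 and 0.189, against 0.109, 0.245 and 0.148 over all genes tested. The highest and lowest for *ADCYAP1R1* were ENSBTAG00000048515 (0.366) and *FOS*. Those for *VIPR2* were *CCDC80* (0.603), which encodes a secreted matrix protein, and *C15H11orf87* (-0.339). Those for *RGS4* were *WFDC1* (0.640), a gene for a whey acidic protein domain inhibitor, and *NPTX1* (-0.443), which encodes a synaptic pentraxin.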
